A study of Homo sapiens with 9 samples.

Results

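The neutrophil-attracting CXC chemokines are small secreted proteins that carry the residues glutamate, leucine and arginine (ELR) just before their CXC cysteine pair. Of the 62710 gene identifiers in the count table, 6 were taken as members by their symbols: CXCL1, CXCL2, CXCL3, CXCL5, CXCL6 and CXCL8, each listed on 1 line. The list was not meant to be complete. PPBP, another chemokine gene of the same cluster, was not taken as a member and is given with the cluster below. The members bind the receptors CXCR1 and CXCR2 on neutrophils and draw these cells out of the blood along a gradient bound to heparan sulfate. In the gut, epithelial cells that sense bacteria transcribe them within hours, largely through the transcription factor NF-κB, and CXCL8, also called interleukin-8, is the family member most often measured as a readout of that response.

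RNA was measured in HT-29 cells, an epithelial line from a human colorectal adenocarcinoma, labelled as wild type in all 9 libraries. The 3 groups of 3 libraries were cells without stimulation, cells given 500 ng/mL flagellin and cells given 500 ng/mL ADP-heptose, each collected after 2.5 h. Flagellin is the bacterial flagellum protein sensed by TLR5 at the cell surface, and ADP-heptose is a bacterial sugar nucleotide sensed by the kinase ALPK1 in the cytosol. The study ran the cultures as independent experiments on this single cell line, so the spread between libraries is that of repeated cultures of HT-29 cells and not of donors.

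Library totals ran from 30,770,448 to 58,272,772 counts, with the ADP-heptose libraries deepest. ADP-heptose replicate 3 stood apart, with an SD of the log2 differences over 11040 genes of 0.36 against replicate 1 and 0.37 against replicate 2, where no other pair within a group exceeded 0.165. All 9 epithelial markers checked, among them EPCAM, CDH1, KRT20 and VIL1, had counts in every library, and their summed level was 8136 to 12596 CPM (the counts-per-million scale). Of 9 leukocyte markers, CD3E, CSF3R, FCGR3B and MPO had no count in any library, and the list summed to 0.111 to 0.41 CPM without stimulation, 0.18 to 0.602 after flagellin and 0.64 to 1.41 after ADP-heptose. Neutrophils, the target cells of these chemokines, were thus not detectable by CSF3R, FCGR3B or MPO. ITGAM, also on the leukocyte list, had 0, 0 and 6 counts without stimulation and 59, 42 and 23 after ADP-heptose. Which cells these counts came from was not tested.

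The 6 genes lie within 358.8 kb of chromosome 4 (GRCh38, 73740506 to 74099293) in the order CXCL8, CXCL6, CXCL1, CXCL5, CXCL3 and CXCL2. CXCL8, CXCL6 and CXCL1 are read on the plus strand, and CXCL5, CXCL3 and CXCL2 on the minus strand. The 150 bases before each RefSeq start site (GRCh38.p14) are shown because the members share a sequence there although their RNA levels differed widely. Capitals mark matches to an NF-κB pattern (GGNNNTTCC), to an AP-1 motif (TGANTCA) and to a TATA box (TATAAA), each searched on both strands.
CXCL8 (chr4:73740419-73740568, plus strand): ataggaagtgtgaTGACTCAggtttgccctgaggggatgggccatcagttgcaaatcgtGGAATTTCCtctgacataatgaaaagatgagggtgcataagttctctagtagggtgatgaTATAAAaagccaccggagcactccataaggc
CXCL1 (chr4:73869243-73869392, plus strand): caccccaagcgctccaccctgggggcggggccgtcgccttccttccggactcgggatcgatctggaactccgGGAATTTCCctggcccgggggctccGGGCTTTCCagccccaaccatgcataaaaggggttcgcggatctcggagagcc
CXCL2 (chr4:74099196-74099345, minus strand): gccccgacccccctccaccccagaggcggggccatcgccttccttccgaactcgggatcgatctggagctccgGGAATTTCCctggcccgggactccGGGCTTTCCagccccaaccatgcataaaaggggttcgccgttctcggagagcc
CXCL3 (chr4:74038690-74038839, minus strand): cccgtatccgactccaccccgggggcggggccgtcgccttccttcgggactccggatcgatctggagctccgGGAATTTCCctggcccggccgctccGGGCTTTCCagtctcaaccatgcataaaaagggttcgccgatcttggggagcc
CXCL5 (chr4:73998678-73998827, minus strand): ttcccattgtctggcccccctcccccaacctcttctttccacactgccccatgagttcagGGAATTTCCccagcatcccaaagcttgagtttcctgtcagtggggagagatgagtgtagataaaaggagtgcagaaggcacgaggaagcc
CXCL6 (chr4:73836528-73836677, plus strand): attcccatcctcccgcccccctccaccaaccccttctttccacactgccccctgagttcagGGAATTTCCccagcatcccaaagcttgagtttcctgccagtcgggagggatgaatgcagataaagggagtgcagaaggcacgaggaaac

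The longest run common to all 6 windows was GGAATTTCC, found between positions -91 and -69 from the start, and it matches the NF-κB pattern on both strands at once. The pattern was present in 6 of 6 members and in 11.1% of 35116 promoter windows of the same length, and the shared run itself, picked after the windows were read, was present in 0.253% of them. CXCL1, CXCL2 and CXCL3 held a second match of the pattern, GGGCTTTCC, at positions -53 to -45. CXCL8 was the member with a match to the AP-1 motif, at positions -137 to -131 (4.17% of all windows), and to the TATA box, at -31 to -26 (6.71%). Only the exact letters TATAAA were searched. Close to the start, the CXCL1, CXCL2 and CXCL3 windows hold cataaa and the CXCL5 and CXCL6 windows gataaa, which differ in the first base only. TTGCNNAA, a motif of C/EBP factors that was also searched, had no exact match in any member and one in 5.02% of all windows. The CXCL8 window holds ttgcaaat, which differs from this motif in the last base only. Near matches were not counted for any motif, so a missing match does not show that a site is absent. These letters are a description of the windows and show no binding. GENCODE 29 places the outermost start of CXCL1 at the same base as RefSeq and those of the other members 63 to 181 bases away, so the windows are tied to the RefSeq starts.

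By sequence the members fell into related groups. CXCL1, CXCL2 and CXCL3 shared 90.7% to 94.4% of their coding bases and 86.0% to 89.9% of the promoter window, and CXCL5 and CXCL6 shared 87.5% and 90.6%. CXCL8 shared 52.5% to 56.1% of coding bases with any other member. Since reads from near-identical stretches can be lost or assigned to the wrong gene, transcripts were compared in windows of 1 read length (150 bases). Of these, 1.83% of the windows of CXCL2 and 1.15% of those of CXCL3 were identical between these genes. None of the windows of CXCL1, CXCL5, CXCL6 or CXCL8 was found in a transcript of another gene. In windows of 100 bases the shares were 5.0% for CXCL2 and 3.27% for CXCL3, and again none for the other members. Only exact identity was counted, so reads that match another member with a few mismatches are not covered. How the authors' counting treated reads with several matches is not given in the sources used here.

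The first question was whether ADP-heptose raised these chemokines. CXCL8, CXCL1, CXCL2 and CXCL3 all rose, by 49.4-fold to 205-fold, from levels of at most 6.01 CPM to levels of 73.4 to 1012 CPM. CXCL5 stayed at trace level, and CXCL6 had no count in the ADP-heptose libraries. Of the 6 members, 4 passed the filter on low counts, each of them with all 3 libraries of every group above the cutoff of 0.267 CPM, and 4 of these 4 were called higher and 0 lower (at least 2-fold with an adjusted p under 0.05), where 2.89% of the 17412 tested genes were called higher and 0.471% lower. In each of the 4 the lowest ADP-heptose library exceeded the highest non-stimulated one, as in 15.4% of tested genes. Their median log2 fold change was 6.81, and that of all tested genes was 0.0087. Levels are CPM after TMM scaling, and all adjusted p are from edgeR's quasi-likelihood test with Benjamini-Hochberg adjustment over all tested genes.

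CXCL8, the prototypic neutrophil attractant and a ligand of both CXCR1 and CXCR2, had levels of 4.74, 3.51 and 6.01 CPM in the 3 non-stimulated libraries and of 947, 1012 and 965 CPM in the 3 ADP-heptose libraries. The groups were far apart, and the non-stimulated libraries varied more in proportion (coefficient of variation 26.3%) than the ADP-heptose ones (3.40%). The log2 fold change was 7.68 (SE 0.16, adjusted p = 9.5e-12), the 12th largest rise of the tested genes.

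CXCL1, first known as GROα and a ligand of CXCR2, had 3.46, 3.23 and 3.17 CPM without stimulation and 294, 282 and 297 CPM after ADP-heptose. Its 3 libraries lay close together in both groups, with coefficients of variation of 4.63% and 2.77%. The log2 fold change was 6.47 (SE 0.09, adjusted p = 4.3e-13).

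CXCL2 and CXCL3, the GROβ and GROγ chemokines that also act through CXCR2, started lower. CXCL2 had 0.41, 0.891 and 0.322 CPM without stimulation and 78.9, 73.4 and 78.3 CPM with ADP-heptose (log2 fold change 7.16, SE 0.20, adjusted p = 1.8e-10). Its counts without stimulation were 16, 32 and 12, so that replicate 2 alone held more than the other libraries together. CXCL3 had 1.97, 3.59 and 2.31 CPM without stimulation and 135, 139 and 113 CPM after ADP-heptose (log2 fold change 5.63, SE 0.18, adjusted p = 5.9e-10). Non-stimulated replicate 2 was the highest of its group for CXCL2 and CXCL3 and the lowest for CXCL8. When it was left out, the log2 fold change of CXCL2 was 7.70, that of CXCL3 5.92 and that of CXCL8 7.50, so that CXCL2 and not CXCL8 had the largest.

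ADP-heptose replicate 3, the library that stood apart over all genes, was the lowest of its group for CXCL3 and lay between the other libraries for CXCL8. Without it the log2 fold changes were 7.69 for CXCL8, 6.46 for CXCL1, 7.15 for CXCL2 and 5.72 for CXCL3, with 4 members called as before.

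**Figure D1:**
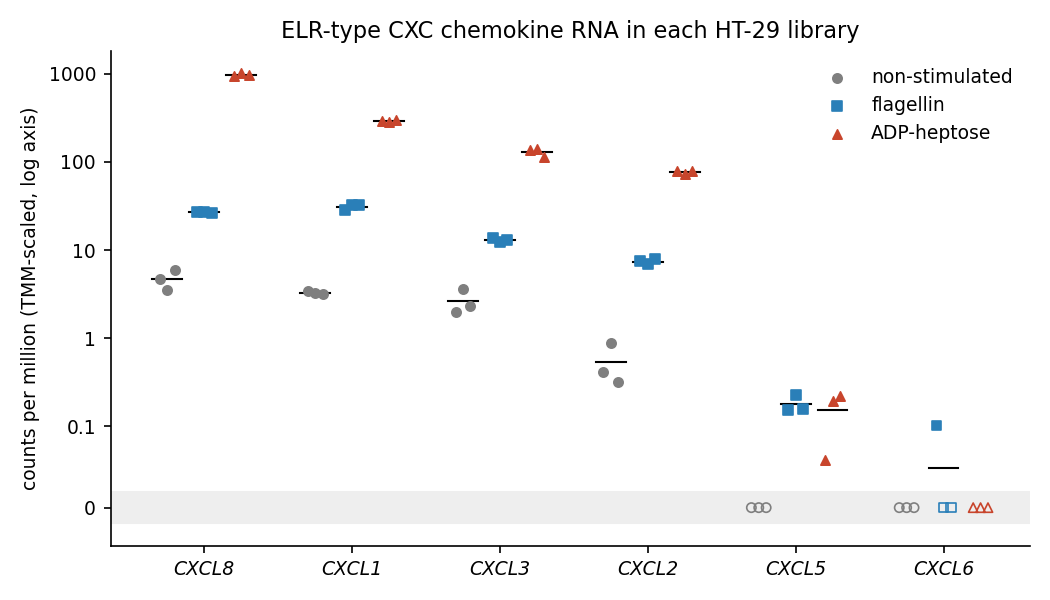
Level of each member in each library, in CPM on a log axis (points are the 9 libraries, black lines the group means of 3 libraries, open symbols in the grey band libraries with no count). CXCL8, CXCL1, CXCL3 and CXCL2 step up from non-stimulated to flagellin to ADP-heptose without overlap, while CXCL5 stays at or below 0.227 CPM and CXCL6 has counts in 1 flagellin library.

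CXCL5 and CXCL6, the epithelial members known as ENA-78 and GCP-2, behaved differently. CXCL5 had 0 counts in each of the 3 non-stimulated libraries, 6, 8 and 5 counts after flagellin and 2, 11 and 10 counts after ADP-heptose. It did not pass the filter in any group and was therefore not tested. Taking 3 counts over the non-stimulated libraries together as the limit that a count of 0 allows (0.0267 CPM), the observed level of CXCL5 was at least 5.73-fold higher after ADP-heptose and at least 6.72-fold higher after flagellin. With the counting error of both groups included and each count taken as independent, the exact 95% lower limits of these ratios were 4.30 and 4.95. With no filter on low counts, edgeR's adjusted p for CXCL5 was 0.0093 after ADP-heptose and 0.078 after flagellin, and DESeq2 gave 0.013 and 0.11.

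The stimuli were not distinguishable in CXCL5 at this depth: 23 counts after ADP-heptose against 19 after flagellin gave a ratio of 0.853 on the CPM scale (95% exact interval 0.444 to 1.66, counting error only). The upper limit lay below the 9.37-fold difference of CXCL1, the smallest of the tested members between the stimuli. CXCL6 had 4 counts in flagellin replicate 1 and 0 in the other 8 libraries. In the ADP-heptose libraries a count of 0 allows up to 0.02 CPM, so CXCL6 at its highest allowed level was far below the 282 CPM or more of CXCL1, the next member along the chromosome. Low counts were even more often than odd (59.6% of the values from 1 to 9 over all genes and libraries), and whether the ends of a read pair were counted separately was not tested. The interval above and the limits given for CXCL5 and CXCL6 take each count as independent. Were the ends counted separately, the interval would be wider and the limits weaker.

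The comparison with flagellin asked how a stimulus through TLR5 acted on the same genes. CXCL8, CXCL1, CXCL2 and CXCL3 also rose after flagellin, by 5.01-fold to 13.8-fold, with CXCL2 and CXCL1 ahead of CXCL8 and CXCL3. Of the 4 tested members 4 were called higher and 0 lower, where 0.212% of the tested genes were called higher and 0.0115% lower, and their median log2 fold change was 2.86 against 0.0048 over all tested genes. Both comparisons use the same non-stimulated libraries.

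CXCL2 had the largest change after flagellin, with 7.44, 6.96 and 7.85 CPM against 0.322 to 0.891 without stimulation (log2 fold change 3.78, SE 0.21, adjusted p = 1.2e-06). CXCL1 followed with 28.8, 32.3 and 32.0 CPM (3.24, SE 0.08, adjusted p = 4.3e-10). CXCL8 reached 27.2, 26.8 and 26.1 CPM (2.49, SE 0.14, adjusted p = 1.2e-06). CXCL3 reached 13.7, 12.5 and 13.0 CPM (2.32, SE 0.17, adjusted p = 1.8e-05). In each of these genes the lowest flagellin library was above the highest non-stimulated library, as in 7.66% of tested genes. Without non-stimulated replicate 2 the log2 fold change of CXCL2 was 4.33, and without replicate 3 it was 3.52. Leaving out replicate 2 also put CXCL3 (2.61) above CXCL8 (2.31).

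The third comparison set the stimuli against each other at the same concentration by weight and the same time. Of the 4 tested members 4 were called higher with ADP-heptose and 0 lower, where 2.06% of the tested genes were called higher and 0.287% lower. The libraries of the stimuli did not overlap in any of the 4, with ADP-heptose above flagellin, as in 14.2% of tested genes. CXCL1, CXCL2 and CXCL3 differed by nearly the same factor, 9.37-fold (log2 3.23, SE 0.07, adjusted p = 5.3e-11), 10.4-fold (log2 3.37, SE 0.15, adjusted p = 1.8e-08) and 9.87-fold (log2 3.30, SE 0.15, adjusted p = 2.8e-08). CXCL8 differed by 36.5-fold (log2 5.19, SE 0.14, adjusted p = 2.5e-10), the 9th largest difference of the 17412 tested genes. Equal weights of a protein and of a sugar nucleotide are not equal numbers of molecules, so the comparison is of these doses.

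**Figure D2:**
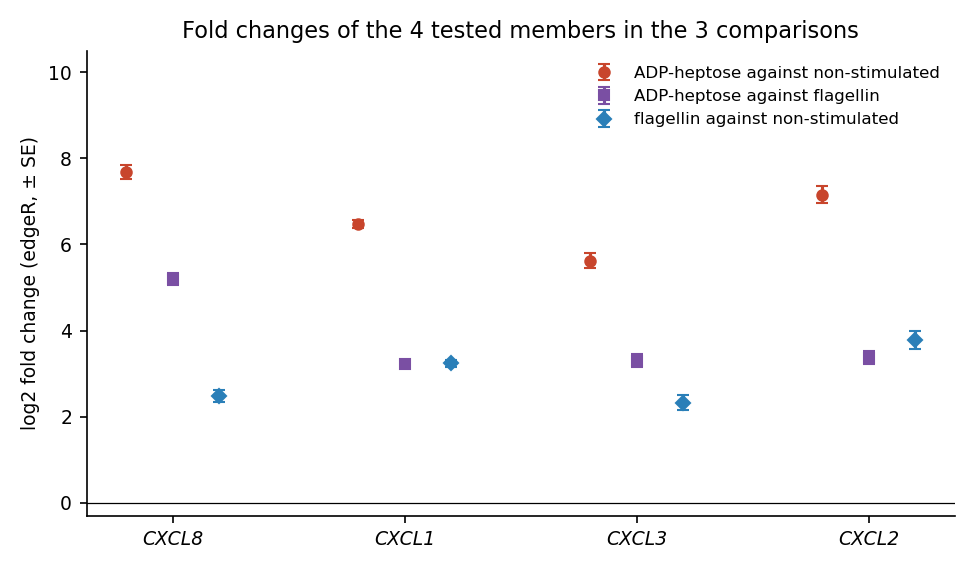
Log2 fold changes of the 4 tested members in the 3 comparisons (y axis; error bars are standard errors from edgeR's fit of 9 libraries). CXCL8 has the largest value in both comparisons with ADP-heptose (7.68 and 5.19) and the third largest after flagellin (2.49), where CXCL2 leads with 3.78; without non-stimulated replicate 2, CXCL2 (7.70) exceeds CXCL8 (7.50) after ADP-heptose and CXCL3 (2.61) exceeds CXCL8 (2.31) after flagellin.

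The balance between the members was read within each library, where scaling between libraries plays no part. After flagellin CXCL8 had fewer counts than CXCL1 in all 3 libraries, with log2 ratios of -0.08, -0.27 and -0.30. After ADP-heptose it had more in all 3, with log2 ratios of 1.69, 1.84 and 1.70, which is a mean of 3.35 counts of CXCL8 for each count of CXCL1. Without stimulation the log2 ratios were 0.45, 0.12 and 0.92, between the values of the stimulated groups and without overlap with either. With 3 against 3 libraries an exact two-sided permutation test cannot give a p under 0.1, so these ratios are given as values.

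Between the stimuli, CXCL8 also differed against CXCL3 and CXCL2. The log2 ratio of CXCL8 to CXCL3 was 0.99 to 1.10 after flagellin and 2.81 to 3.09 after ADP-heptose, and that of CXCL8 to CXCL2 was 1.73 to 1.95 and 3.59 to 3.79. Without stimulation these ratios were spread more widely, at -0.03 to 1.38 for CXCL3 and 1.98 to 4.22 for CXCL2, and overlapped with flagellin for the former and with ADP-heptose for the latter. Among the GRO genes the stimuli lay closer together. The log2 ratio of CXCL3 to CXCL1 overlapped between the stimuli (-1.37 to -1.07 after flagellin, -1.39 to -1.01 after ADP-heptose) and was higher without stimulation, at -0.81 to 0.15, with no overlap. That of CXCL2 to CXCL1 was -2.22 to -1.95 after flagellin and -1.94 to -1.90 after ADP-heptose, a gap smaller than the range within the flagellin group, and -3.30 to -1.86 without stimulation.

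Levels of different genes were compared per kilobase of exon (RPKM, the TMM-scaled CPM divided by the length of all annotated exons of the gene). After ADP-heptose CXCL8 came first with 429 ± 14.6 RPKM (mean ± SD, n = 3), followed by CXCL1 with 224 ± 6.22, CXCL3 with 58.2 ± 6.36 and CXCL2 with 51.2 ± 2.03. CXCL3 and CXCL2 overlapped, at 51.0 to 62.9 and 48.9 to 52.6 RPKM. This overlap depends on the length taken. With the longest transcript (1641 bases for CXCL3, 1218 for CXCL2), CXCL3 lay above CXCL2 in all ADP-heptose libraries without overlap. After flagellin CXCL1 came first with 24.0 ± 1.502 RPKM, ahead of CXCL8 with 11.7 ± 0.26, CXCL3 with 5.89 ± 0.273 and CXCL2 with 4.94 ± 0.299, with no overlap between neighbours. Without stimulation CXCL1 (2.53 ± 0.117) and CXCL8 (2.09 ± 0.55) overlapped, as did CXCL8 and CXCL3 (1.18 ± 0.385), and CXCL2 (0.361 ± 0.204) was the lowest.

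Expressed as shares of the summed per-length level of the 6 members, CXCL8 made up 33.9 ± 8.58% in non-stimulated cells, 25.2 ± 1.08% with flagellin and 56.2 ± 1.22% with ADP-heptose (mean ± SD, n = 3). CXCL1 made up 41.2 ± 3.48%, 51.4 ± 2.15% and 29.4 ± 1.19%. After each stimulus the libraries agreed closely, with CXCL8 at 24.2% to 26.3% in the flagellin libraries and 55.0% to 57.5% in the ADP-heptose ones. By level per length among 16764 tested genes with an annotated length, CXCL8 ranked 9736th without stimulation, 3873rd after flagellin and 79th after ADP-heptose, and CXCL1 ranked 9158th, 1896th and 160th. The 6 members together took 0.0011% to 0.00123% of a library's counts in non-stimulated cells, 0.00788% to 0.00812% with flagellin and 0.130% to 0.146% with ADP-heptose.

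**Figure D3:**
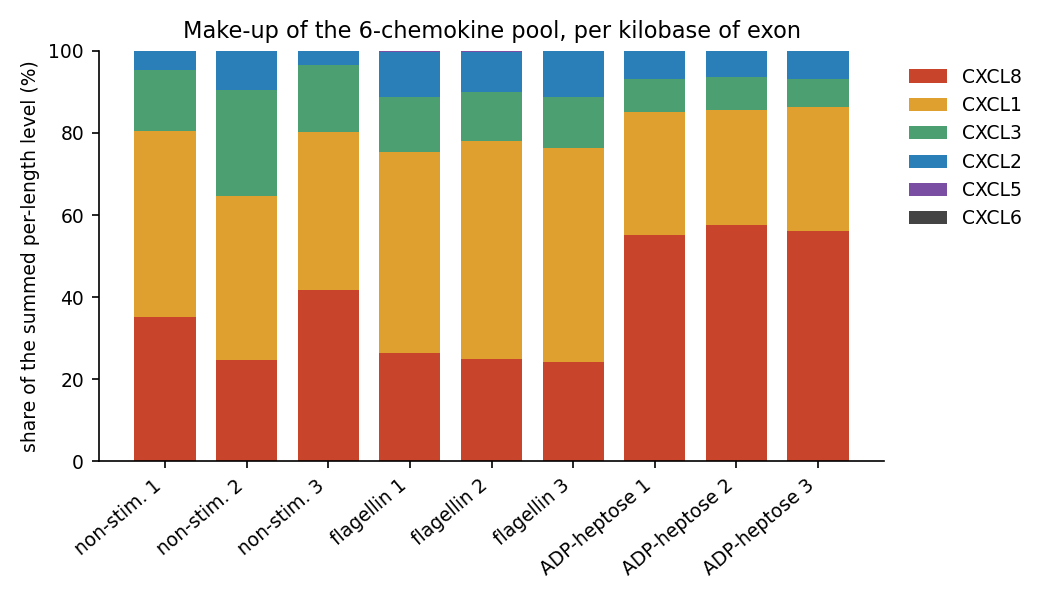
Share of each member in the summed level per kilobase of exon of the 6 genes (y axis, percent), in each of the 9 libraries (bars). CXCL1 (yellow) is the largest part in the flagellin libraries, at 48.9% to 53.0%, and CXCL8 (red) in the ADP-heptose libraries, at 55.0% to 57.5%; CXCL5 and CXCL6 are too small to see.

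The genes between and around the members on the chromosome were also read. Whether nearness to the members bears on their values was not tested. The cluster also holds PPBP, PF4 and PF4V1, chemokine genes of platelets, and the pseudogenes CXCL1P1, PPBPP1 and PPBPP2. Of 8 such genes listed 6 are in the table, and none of these 6 had a count in any of the 9 libraries, although PF4V1 and PF4 lie between members that rose. PPBPP1 lies within the span of CXCL6 on the same strand, so a read there could have been left out as ambiguous. Of the 9 flanking genes chosen, 5 were tested. After ADP-heptose 3 of them were called higher and 0 lower, where 2.89% of the tested genes were called higher and 0.471% lower. The median of the 5 log2 values was 1.09, against 0.0087 over all tested genes. The flanking genes were chosen with earlier results of these data known. The 3 called were AREG (log2 fold change 2.12, SE 0.09, adjusted p = 1.2e-08) and EREG (1.67, SE 0.13, adjusted p = 2.1e-06), which encode the EGF receptor ligands amphiregulin and epiregulin, and RASSF6 (1.09, SE 0.13, adjusted p = 9.2e-05).

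The call of RASSF6 sat at the 2-fold threshold, and its log2 fold change was 0.98 without ADP-heptose replicate 2 and 0.96 with library totals in place of TMM. MTHFD2L, the gene next to CXCL2, gave a log2 fold change of 0.04 (adjusted p = 0.85). After flagellin edgeR called 0 of the 5 flanking genes, 0 had an unadjusted p under 0.05, and AREG and EREG gave log2 fold changes of 0.09 and 0.12. In the direct comparison AREG (2.03, adjusted p = 2.8e-08) and EREG (1.56, adjusted p = 5.7e-06) were higher with ADP-heptose.

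**Figure D4:**
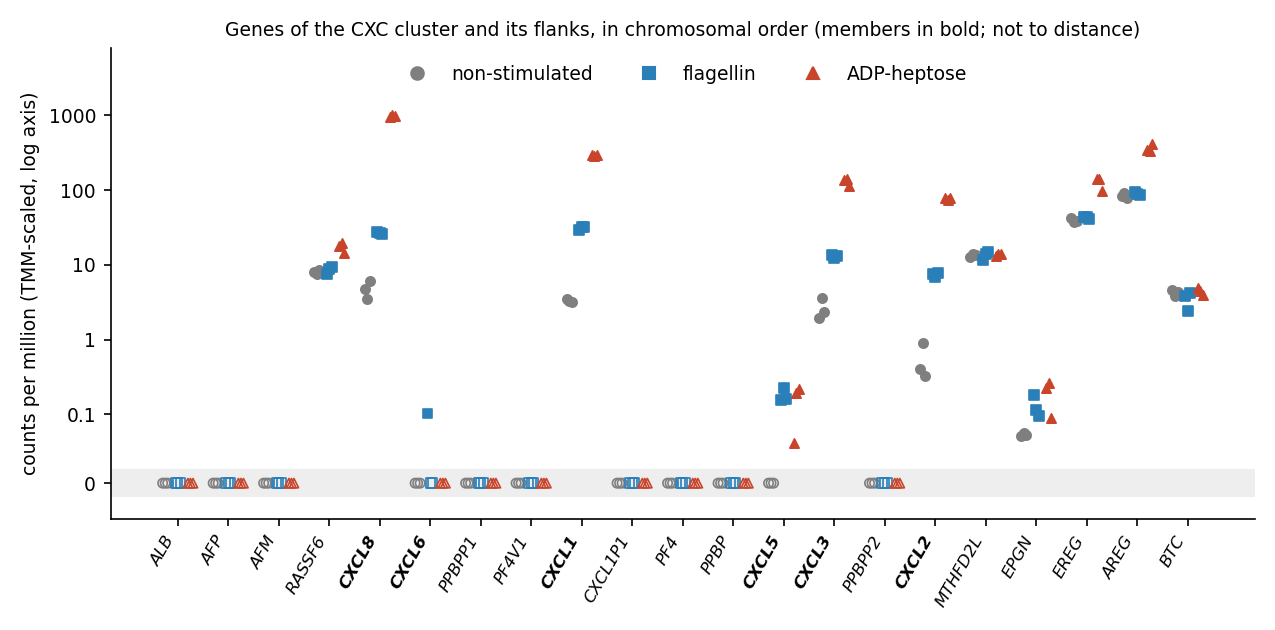
Level of the members (bold) and of the other genes of the cluster and its flanks in chromosomal order (x axis, not to distance), in CPM on a log axis, with 3 libraries per group as points and open symbols in the grey band for no count. CXCL8, CXCL1, CXCL3 and CXCL2 rise after both stimuli, AREG and EREG rise after ADP-heptose, and CXCL6, PF4V1, PF4 and PPBP between them stay at or near 0.

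Receptors and partners of the chemokines were followed in a list of 8 genes, of which 3 were tested. CXCR1 and the decoy receptor ACKR1 had no count in any library, CXCR2 had at most 2 counts in a library, and the neutrophil proteases MMP8 and MMP9 had none. SDC4, a heparan sulfate proteoglycan of the cell surface that binds chemokines, rose from 82.8, 92.4 and 86.7 CPM to 221, 213 and 210 CPM after flagellin (log2 fold change 1.30, SE 0.07, adjusted p = 7.3e-07). After ADP-heptose it reached 1214, 1206 and 1192 CPM (log2 fold change 3.79, SE 0.07, adjusted p = 6.2e-12). SDC1, the related syndecan-1, gave log2 fold changes of -0.04 after ADP-heptose (adjusted p = 0.82) and 0.05 after flagellin (adjusted p = 1). DPP4, a protease that trims the ends of several chemokines, was not called, with a log2 fold change of -0.27 (SE 0.07, adjusted p = 0.029) with ADP-heptose. Its adjusted p was 0.062 with the replicate number as a block, 0.096 in the fit of 6 libraries, 0.072 to 0.12 without 1 non-stimulated library, 0.053 to 0.061 without 1 flagellin library and 0.051 without ADP-heptose replicate 1.

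Most CXC chemokines without the ELR motif attract lymphocytes, and of 8 such genes 3 were tested. CXCL10 and CXCL11 passed the filter on low counts in all 3 libraries of the ADP-heptose group only, so their calls against the other groups are in part fixed by the filter. CXCL10 had 0, 2 and 0 counts without stimulation, 4, 0 and 12 after flagellin and 85, 106 and 105 after ADP-heptose, which is 1.98 ± 0.295 CPM (adjusted p = 0.00027 against non-stimulated cells). CXCL11 reached 0.582 ± 0.0699 CPM after ADP-heptose (adjusted p = 0.022), and its adjusted p was 0.1 without non-stimulated replicate 1, 0.07 without non-stimulated replicate 2 and 0.058 without ADP-heptose replicate 1. CXCL16, a membrane-bound chemokine, had 21.7, 19.0 and 18.1 CPM without stimulation and 27.0, 28.9 and 25.3 CPM after ADP-heptose (log2 fold change 0.46, SE 0.10, adjusted p = 0.007, and up to 0.055 in the alternatives). After ADP-heptose 2 of the 3 were called higher, and after flagellin 0 were, with edgeR's unadjusted p under 0.05 for CXCL10 and CXCL16 and their adjusted p at 1 and 0.84. In the direct comparison 1 was called higher with ADP-heptose, CXCL10 (adjusted p = 0.0027).

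Among the leukocyte markers, ITGAM rose with the chemokines after ADP-heptose, from 0, 0 and 6 counts to 59, 42 and 23 (adjusted p = 0.012, and 0.056 and 0.052 without non-stimulated replicate 1 or 2). Its part in the chemokine values was not tested, and CD3E, CSF3R, FCGR3B and MPO stayed at 0 in the same libraries. ITGAM was the 1 tested gene of the leukocyte list and passed the filter in the ADP-heptose libraries only, so its call too is in part fixed by the filter. None of the 9 epithelial markers was called in any comparison. KRT20 was past the adjusted p threshold at less than 2-fold, after ADP-heptose (log2 fold change 0.40, adjusted p = 0.00094) and against flagellin (0.30, adjusted p = 0.0086). Of 5 fibroblast and endothelial markers 1 was tested and 0 were called, with sums of 12.6 to 14.7 CPM in non-stimulated cells, 12.6 to 16.1 with flagellin and 17.0 to 19.2 with ADP-heptose. The tested gene, COL1A1, had a log2 fold change of 0.41 after ADP-heptose (adjusted p = 0.031, and up to 0.12 in the alternatives).

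The genes whose log2 CPM over the 9 libraries was most like the mean of the 4 tested members were, among 12164 genes whose mean log2 CPM reached 1, ICAM1 (Pearson r = 0.998), BIRC3 (0.9959), ZC3H12A (0.995), CSF1 (0.9946) and SDC4 (0.9937). The members themselves had r of 0.988 for CXCL8 to 0.9974 for CXCL3 with their own mean. All these values rest on the same 9 libraries in 3 groups and describe that order of levels only. ICAM1, the endothelial and epithelial adhesion molecule that neutrophils bind, had 4.72 ± 0.494 CPM in non-stimulated cells, 29.1 ± 2.94 with flagellin and 296 ± 18.6 with ADP-heptose (mean ± SD, n = 3). These CPM were close to those of CXCL1, but CPM take no account of gene length and do not compare the levels of different genes. CSF1, the macrophage growth factor, went from 0.597 ± 0.157 to 7.05 ± 0.296 and 79.4 ± 6.02 CPM. BIRC3 (ubiquitin ligase of the NF-κB pathway) and ZC3H12A (an RNase that degrades cytokine mRNA) rose by log2 fold changes of 2.08 and 0.73 after flagellin and of 4.93 and 1.99 after ADP-heptose.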

How the data were processed

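Poly(A) RNA of HT-29 cells was sequenced by the authors as paired 150-base reads, aligned with HISAT2 and assigned to genes with featureCounts; versions, genome build, strandedness and the handling of multiply mapped reads are not given in the sources used here. The deposited values are raw counts per gene and library. The table has 62972 lines for 62710 identifiers, and 232 identifiers listed more than once, with identical counts, were kept once. Positions and exon lengths came from GENCODE 29 (GRCh38), which holds 92.9% of the identifiers, and promoter sequences from RefSeq (GRCh38.p14; 6 of 6 members matched).

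Libraries were grouped by the labelled treatment. Counts of all 9 libraries were fitted in 1 model with edgeR 4.0.16 in R 4.3.3 (TMM, filterByExpr with a minimum count of 10, robust quasi-likelihood fit and F test), with 3 contrasts and no covariate. A gene was called where it differed by at least 2-fold with an adjusted p (Benjamini-Hochberg) under 0.05. Standard errors are the log2 fold change divided by the root of F. CPM were computed on effective library sizes, and RPKM are CPM per kilobase. Intervals and limits of a count of 0 (3 counts) cover counting error only. Identity was computed by global alignment in Biopython 1.88, and the fits were tested on simulated data.

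Genes named are the members, the lists of receptors and partners, cluster, flanking and non-ELR genes, cell type markers, and the 5 genes most like the members. The members and lists were chosen with earlier results of these data known. The alternatives were DESeq2's size factors, library totals, the DESeq2 1.42.0 test, no filter or a mean of at least 10 counts, 6 libraries per fit, the replicate number as a block, each library left out in turn, no fold threshold, and the longest transcript as length.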

Additional observations from a re-analysis of the deposited data

How the results depend on the processing

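The 12 log2 fold changes of CXCL1, CXCL2, CXCL3 and CXCL8 kept their direction and their calls in all 192 values computed with other scalings, filters, tests and sets of libraries. The widest range was that of CXCL2 against non-stimulated cells, 6.90 to 7.70 after ADP-heptose and 3.52 to 4.33 after flagellin, set in both by leaving out non-stimulated replicate 3 or 2. Library totals moved the all-gene median to -0.13 after ADP-heptose and gave 6.33 for CXCL1. Without the filter 60 genes were called higher after flagellin in place of 37.

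Same-numbered libraries did not deviate together (correlations of -0.127 to 0.0919), so the labels' numbers were not taken as pairs; with the replicate number as a block the log2 fold changes of CXCL8, CXCL1, CXCL2 and CXCL3 after ADP-heptose were 7.69, 6.47, 7.16 and 5.63, and the block changed no call of a member. For ITGAM the adjusted p in the direct comparison went from 0.048 to 0.086 with the block.

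With the longest transcript as length, the shares after flagellin became 48.7% for CXCL1, 13.7% for CXCL3 and 27.0% for CXCL8, and those after ADP-heptose 27.1% for CXCL1 and 58.4% for CXCL8. Depth limits CXCL5 and CXCL6, which had at most 11 counts in any library.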
